A study of Rattus norvegicus with 7 samples.

Results

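The hair follicle keratins and the regulators of hair growth were followed in the rat eyelid after ultraviolet B (UVB) exposure. The set was a list of 40 gene symbols: keratins of the inner root sheath and of the hair shaft, proteins that work with them, and signals and transcription factors of the hair matrix. Of these, 37 were present among 17246 genes of the deposited table and 35 passed the filter on low counts. Krt33b, Krt74 and Msx1 were not analysed here. RNA was sequenced from meibomian glands, the lipid-secreting glands of the eyelid margin, of wild-type female Sprague-Dawley rats aged 3 months. The 4 control libraries came from rats with no treatment. The 3 UVB libraries came from rats whose shaved upper lids received 300 mJ/cm2 in 5 min per day on 5 days. The labels do not say whether control lids were shaved, nor how long after the last exposure the glands were taken. The columns of the tables show the group of a library but no number that matches a label, so letters were given, namely control a, b, c and d, and UVB a, b and c. Each column carries a different number, but the labels do not state that each library is a separate animal. A p-value therefore sets the group difference against the spread between these libraries.

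A growing hair is built in concentric layers from dividing matrix cells around the dermal papilla. Wnt signals acting through the factor LEF1, together with the homeobox proteins MSX2, DLX3 and HOXC13 and the forkhead protein FOXN1, drive the hair shaft lineage, while GATA3 acts in the inner root sheath. The inner root sheath, a stiff sleeve that moulds the shaft, holds its own keratins and trichohyalin. The companion layer separates it from the outer root sheath, and the cortex and cuticle of the shaft hold cysteine-rich hair keratins. The lid margin carries lash and fine hair follicles beside the meibomian glands, and the meibomian gland itself is related to the sebaceous gland of the follicle.

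Promoter sequences are shown for 7 keratin and sheath genes, because the members of the sheath and the shaft carried different short words upstream of their starts. A promoter entry of RefSeq (rat assembly GRCr8) was found for 30 of the 37 genes, and the 250 bases before the annotated start were searched. Entries were not found for Krt81, Krt83, Krt86, Dlx3, Hoxc13, Wnt10b and Foxe1. The words were TATAAA, read on the strand of the gene, and CTTTGA (a word bound by LEF1 and its relatives), AGATAA (bound by GATA factors) and TAATTG (bound by many homeobox proteins), read on both strands. AGATAA was present upstream of 5 of 11 sheath genes and 0 of 10 shaft genes, against 10.3% of all 33469 promoters. CTTTGA was present upstream of 6 of 10 shaft genes and 1 of 11 sheath genes, against 13.9% of all promoters. TAATTG was present in 4 of 11 and 1 of 10, against 7.31%. TATAAA lay 25 to 40 bases before the start in 4 of 11 sheath genes and 3 of 10 shaft genes, against 1.22% of all promoters. The keratin genes are neighbours that share ancestry, so their promoters are not independent of each other. A matching word is a description of the letters and no evidence of binding, and in 4 of the 30 entries the annotated start is an ATG, so the window there may not be the promoter.

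The sheath examples were Krt71 (chr7:134761034-134761283, minus strand), Krt25 (chr10:84771198-84771447, minus strand) and Tchh (chr2:181786859-181787108, plus strand). Each is written in the direction of the gene and ends at the last base before the start. Capitals mark AGATAA and the TATAAA near the start.
Krt71: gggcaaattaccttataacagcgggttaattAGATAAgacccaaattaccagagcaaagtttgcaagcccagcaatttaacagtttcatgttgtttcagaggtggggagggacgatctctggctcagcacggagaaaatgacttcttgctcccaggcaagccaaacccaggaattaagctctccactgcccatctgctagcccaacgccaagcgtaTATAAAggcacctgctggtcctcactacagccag
Krt25: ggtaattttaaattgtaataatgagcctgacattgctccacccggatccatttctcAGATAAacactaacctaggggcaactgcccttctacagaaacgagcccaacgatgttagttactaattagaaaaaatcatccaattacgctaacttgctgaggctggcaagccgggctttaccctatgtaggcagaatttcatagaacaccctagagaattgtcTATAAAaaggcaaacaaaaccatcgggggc
Tchh: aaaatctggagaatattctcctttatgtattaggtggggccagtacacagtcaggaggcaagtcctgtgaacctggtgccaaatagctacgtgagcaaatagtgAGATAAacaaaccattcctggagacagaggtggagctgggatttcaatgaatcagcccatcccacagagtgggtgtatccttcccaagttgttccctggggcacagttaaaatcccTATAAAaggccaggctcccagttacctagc
AGATAA began 219 bases before the start of Krt71, 194 before that of Krt25 and 146 before that of Tchh, each time on the strand of the gene. TATAAA began 34, 30 and 30 bases before the start.

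The shaft examples were Krt31 (chr10:85483301-85483550), Krt34 (chr10:85474502-85474751), Krt32 (chr10:85520979-85521228) and Krt85 (chr7:134515787-134516036), all on the minus strand. Capitals mark CTTTGA and the TATAAA near the start.
Krt31: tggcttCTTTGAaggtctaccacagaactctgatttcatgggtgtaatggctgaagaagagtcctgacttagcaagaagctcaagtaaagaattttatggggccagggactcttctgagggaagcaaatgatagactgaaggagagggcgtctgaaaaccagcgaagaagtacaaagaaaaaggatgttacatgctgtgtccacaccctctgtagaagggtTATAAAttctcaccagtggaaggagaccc
Krt34: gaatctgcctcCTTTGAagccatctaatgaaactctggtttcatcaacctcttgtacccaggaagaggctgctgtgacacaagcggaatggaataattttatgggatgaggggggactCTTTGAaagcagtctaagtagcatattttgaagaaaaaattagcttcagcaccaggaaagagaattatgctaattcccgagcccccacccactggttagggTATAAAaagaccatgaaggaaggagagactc
Krt32: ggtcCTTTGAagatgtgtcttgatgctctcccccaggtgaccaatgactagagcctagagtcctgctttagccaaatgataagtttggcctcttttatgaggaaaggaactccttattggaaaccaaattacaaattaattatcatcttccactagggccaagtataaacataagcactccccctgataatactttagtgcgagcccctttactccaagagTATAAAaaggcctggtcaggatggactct
Krt85: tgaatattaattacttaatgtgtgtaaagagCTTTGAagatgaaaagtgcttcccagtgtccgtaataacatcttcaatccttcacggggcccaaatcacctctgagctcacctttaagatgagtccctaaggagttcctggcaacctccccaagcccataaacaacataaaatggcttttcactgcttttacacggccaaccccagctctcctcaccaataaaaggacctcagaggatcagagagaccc
CTTTGA began 244 bases before the start of Krt31, 239 and 132 before that of Krt34, 246 before that of Krt32 and 219 before that of Krt85. The type I hair keratin gene Krt36 also had it at 246 bases, and the cuticle gene S100a3 at 153. TATAAA began 29 bases before the start of Krt31 and Krt32 and 31 before that of Krt34, and Krt85 had none in this window.

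The libraries held 20680237 to 28784941 estimated counts. The tissue label was checked with 16 genes of lipid-producing meibocytes, which were all present and summed to between 53072 and 64668 TPM in controls and between 51590 and 59410 TPM after UVB. At an edgeR adjusted p under 0.05, 4 of the 16 were lower and 1 higher, where 6.74% and 6.30% of all tested genes were. Scd, the largest part of the sum, averaged 27692 TPM in controls and 27033 TPM after UVB. Awat2 averaged 11610 and 7380 TPM (edgeR adjusted p = 0.00453), so the sum does not show each gene. TPM is corrected for transcript length and was used for all levels. In bulk tissue, fewer follicle cells and less RNA per follicle cell cannot be told apart. UVB c stood apart from UVB a and UVB b in many of the follicle genes, and counts of calls are given with and without it. Each library was left out in turn, but UVB c was singled out after these values were seen. More calls or smaller p-values without it are therefore a description and no independent support.

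Follicle genes were lower after UVB, and none was called higher. Of the 35 tested members, 12 were called lower (edgeR quasi-likelihood test, Benjamini-Hochberg adjusted p under 0.05) and 0 higher, where 6.74% of all 13709 tested genes were called lower and 6.30% higher. At an unadjusted p under 0.05, 22 members were lower, where 15.5% of all tested genes were, and 0 were higher. The members were chosen with earlier results of these data known, so these counts are a description and no independent support. Neither DESeq2 nor limma-voom called a member higher. The log2 fold change was below 0 for 34 of the 35, with a median of -0.96 against -0.0058 for all tested genes. Every UVB library was below every control for 16 members, in TPM, where 12.6% of all tested genes showed this. UVB a and UVB b were both below every control for 30 members (17.3% of all tested genes), and UVB c was for 18 (28.8%).

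The number of calls rested on single libraries. Without UVB c, 25 of 35 members were called lower, among them all 12 of the full comparison, where 4.39% of all tested genes were called lower in that fit. Without UVB a the count was 4 (4.64% of all tested genes) and without UVB b it was 5 (3.14%). Leaving out control a gave 6 (7.09%), leaving out control b gave 7 (3.92%), leaving out control c gave 9 (3.17%) and leaving out control d gave 5 (3.20%). DESeq2 called 16 members lower (8.28%) and limma-voom 15 (6.93%). Krt75, Krt82, S100a3 and Lef1 kept their call in each of 18 alternatives.

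**Figure D1:**
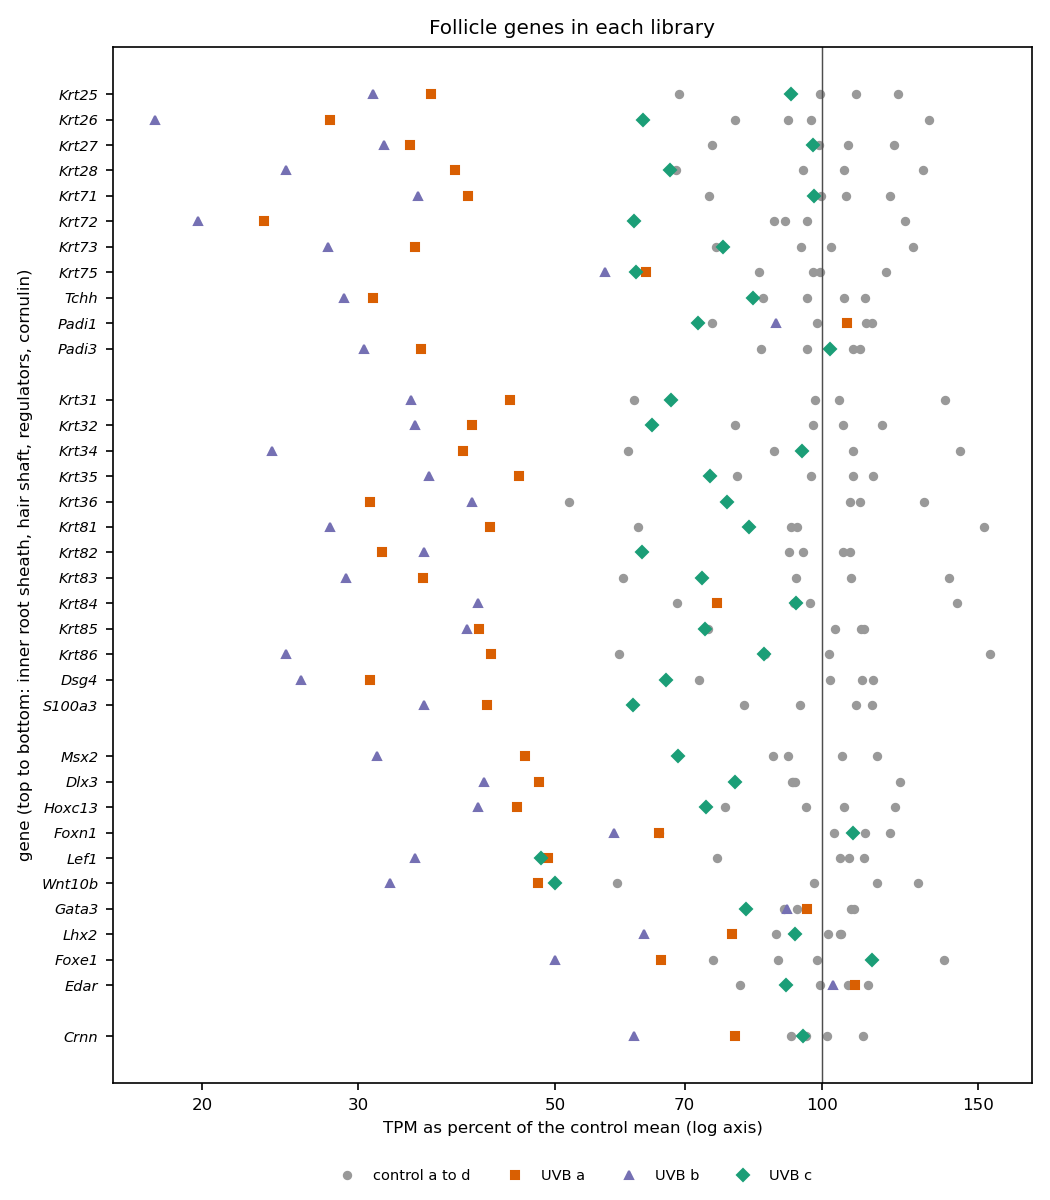
Level of each tested follicle gene in every library, as percent of its control mean in TPM on a log axis; grey circles are the 4 controls, and the squares, triangles and diamonds are UVB a, UVB b and UVB c. UVB a and UVB b lie left of every control for 30 of 35 genes, while UVB c lies among or close to the controls for many and beside UVB a and UVB b for Krt75, Lef1 and Wnt10b.

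The inner root sheath genes had the highest summed level of the roles in every library but control b, where the shaft sum was higher. Summed over the 11 sheath and companion genes measured, the level was 1084, 845, 1068 and 1271 TPM in controls a to d and 449, 394 and 922 TPM in UVB a to c. The UVB mean was 55.1% of the control mean, or 39.5% without UVB c, and UVB c alone stood at 86.4%, above control b. Of the 11 genes, 2 were called lower with all libraries and 10 without UVB c, where 6.74% and 4.39% of all tested genes were. The median log2 fold change was -0.92 with all libraries and -1.61 without UVB c. DESeq2 called 5 of the 11 lower (8.28% of all tested genes) and limma-voom called 6 (6.93%).

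**Figure D2:**
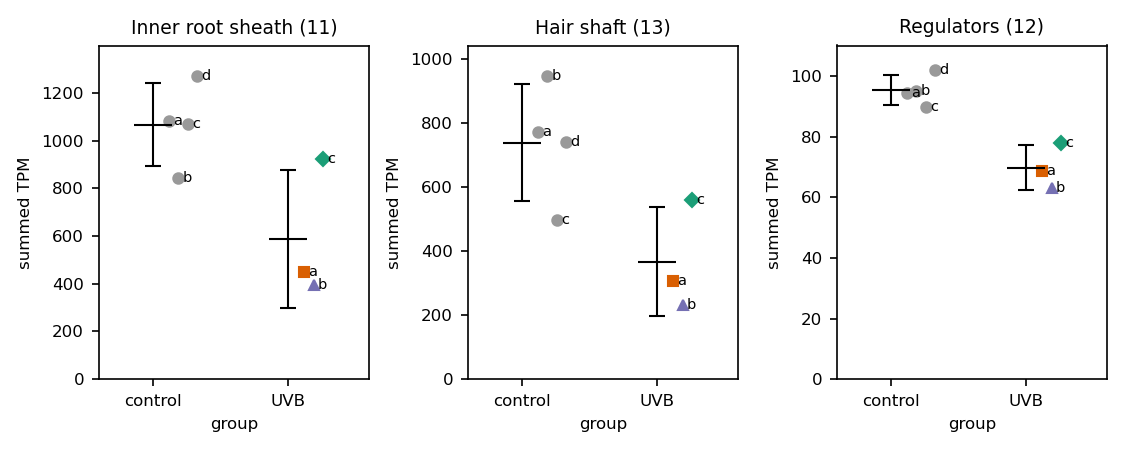
Summed TPM of the sheath, shaft and regulator genes in each library, with the number of genes in brackets; the letters name the libraries and the bars are the group mean and SD. UVB a and UVB b are the 2 lowest libraries in each panel, and UVB c lies within the control range for the sheath and the shaft and below every control for the regulators.

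Krt71, a type II keratin found in all layers of the inner root sheath, was the most abundant member. It measured 310, 217, 290 and 347 TPM in controls a to d and 116, 102 and 285 TPM in UVB a to c. UVB a and UVB b were below every control, while UVB c lay inside the control range. UVB minus control was -0.80 in log2 (SE 0.37, edgeR adjusted p = 0.195), and -1.42 (SE 0.18, edgeR adjusted p = 0.00676) without UVB c. In what follows the first value in brackets is the log2 difference, UVB minus control. Krt25, a type I partner in the same layers, measured 264, 167, 241 and 295 TPM in controls and 87.8, 75.4 and 223 TPM after UVB (-0.92, SE 0.40, edgeR adjusted p = 0.171). Krt27, a further type I sheath keratin, measured 140, 98.4, 130 and 158 TPM in controls and 45, 42.0 and 128 TPM after UVB (-0.88, SE 0.40, edgeR adjusted p = 0.196). In both genes UVB c again lay inside the control range, and both passed the threshold without UVB c (-1.57 and -1.60, edgeR adjusted p = 0.0102 and 0.00499). The estimated counts of Krt25 and Krt27 were not whole in any library, and their sum was whole in all 7 within 0.02, so reads were divided between this pair and the separate levels are uncertain.

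Krt72, a type II keratin of the sheath cuticle, was called lower with all libraries. It measured 14.8, 14.0, 13.6 and 19.1 TPM in controls and 3.62, 3.05 and 9.45 TPM after UVB, and the groups did not overlap. The difference of -1.51 in log2 (SE 0.37, edgeR adjusted p = 0.0362) was the largest fall among the members tested, and its call was lost in 7 of 18 alternatives (adjusted p up to 0.0972). Krt26, the type I keratin of the sheath cuticle, measured 8.80, 7.67, 9.33 and 12.7 TPM in controls and 2.68, 1.70 and 6.03 TPM after UVB. It did not overlap either but missed the threshold at -1.47 (SE 0.40, edgeR adjusted p = 0.0511), and it passed in 8 of 18 alternatives. In UVB c these cuticle keratins stood at 61.5% and 62.7% of their control means, lower than Krt71 (98.0%), Krt27 (97.7%) and Krt25 (92.1%).

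Krt28 and Krt73 lay between these. Krt28 measured 26.6, 17.2, 23.9 and 32.6 TPM in controls and 9.68, 6.25 and 16.9 TPM after UVB (-1.20, SE 0.34, edgeR adjusted p = 0.0583). Krt73, which is found in the sheath cuticle, measured 50.9, 37.7, 47.1 and 63.0 TPM in controls and 17.3, 13.8 and 38.4 TPM after UVB (-1.10, SE 0.36, edgeR adjusted p = 0.0855). UVB c was just under the lowest control for Krt28 and just above it for Krt73. Neither gene passed with all libraries and both did without UVB c.

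Krt75, the type II keratin of the companion layer, had another pattern. It measured 146, 171, 168 and 203 TPM in controls a to d and 109, 97.8 and 106 TPM in UVB a to c. All 3 UVB libraries were below every control and close to each other, at 63.2%, 56.9% and 61.6% of the control mean. UVB minus control was -0.73 in log2 (SE 0.10, edgeR adjusted p = 0.00436) with all libraries and -0.74 (SE 0.13) without UVB c. The ratio of Krt75 to Krt71 was 0.472 to 0.787 in controls, 0.932 in UVB a, 0.954 in UVB b and 0.372 in UVB c, so the companion and sheath keratins did not move in proportion.

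The partners of the sheath keratins were trichohyalin and the enzymes that modify it. Tchh, which encodes trichohyalin, measured 97.1, 86.6, 113 and 107 TPM in controls and 31.5, 29.2 and 84.4 TPM after UVB. It missed the threshold with all libraries (-1.06, SE 0.36, edgeR adjusted p = 0.10) and passed without UVB c (-1.73, SE 0.12, edgeR adjusted p = 0.000523). Padi3, which converts arginine of trichohyalin to citrulline, measured 9.35, 7.23, 8.14 and 9.17 TPM in controls and 2.99, 2.58 and 8.65 TPM after UVB (-0.84, SE 0.40, edgeR adjusted p = 0.214). UVB c was above the control mean for Padi3, and without it the value was -1.61 (edgeR adjusted p = 0.00262). Padi1, a related deiminase that is also active in the epidermis, measured 16.7, 21.9, 24.9 and 25.3 TPM in controls and 23.7, 19.7 and 16.1 TPM after UVB. Its groups overlapped (-0.17, SE 0.16, edgeR adjusted p = 0.529), and it was the sheath gene not called without UVB c.

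The shaft genes included keratins of the cortex and the cuticle. The 13 measured shaft genes summed to 772, 947, 499 and 743 TPM in controls a to d and to 307, 233 and 560 TPM in UVB a to c. UVB c was above control c, so the groups overlapped. Of the 13, 6 were called lower with all libraries and 11 without UVB c, where 6.74% and 4.39% of all tested genes were. The median log2 fold change was -0.99, or -1.47 without UVB c. The UVB mean of the sum was 49.5% of the control mean, or 36.5% without UVB c. Whether the sheath and the shaft differ in response was not tested.

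The keratins that begin in the lower shaft and those of the shaft cuticle were called lower. Krt35 and Krt85, a type I and type II pair that starts in the matrix and lowest cortex, measured 40, 35.9, 29.6 and 42.1 TPM and 88.6, 82.3, 59.1 and 88.0 TPM in controls. After UVB, Krt35 measured 16.8, 13.3 and 27.6 TPM and Krt85 measured 32.6, 31.6 and 58.6 TPM. UVB c was only just below control c in both. In log2 the differences were -0.95 (SE 0.25, edgeR adjusted p = 0.0417) and -0.96 (SE 0.26, edgeR adjusted p = 0.0488), and each call was lost in 7 of 18 alternatives. The counts of Krt85 were not whole in any library.

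Krt32 and Krt82 are the type I and type II keratins of the hair cuticle, and both were called lower. Krt32 measured 27.8, 25.7, 21.0 and 30.7 TPM in controls and 10.6, 9.14 and 16.9 TPM after UVB (-1.11, SE 0.22, edgeR adjusted p = 0.0176). Krt82 measured 15.5, 13.7, 13.2 and 15.2 TPM in controls and 4.60, 5.12 and 9.02 TPM after UVB (-1.20, SE 0.22, edgeR adjusted p = 0.0112). Neither overlapped, and UVB c stood at 64.3% and 62.6% of the control means. The call of Krt32 was lost in 2 of 18 alternatives (adjusted p up to 0.0569). S100a3, a cysteine-rich calcium-binding protein of the hair cuticle, measured 118, 102, 88.1 and 123 TPM in controls and 45.3, 38.4 and 66.2 TPM after UVB (-1.13, SE 0.20, edgeR adjusted p = 0.0116). Dsg4, the desmosomal cadherin of the shaft, measured 6.76, 6.56, 4.30 and 6.05 TPM in controls and 1.83, 1.53 and 3.95 TPM after UVB (-1.28, SE 0.33, edgeR adjusted p = 0.0393). The groups did not overlap in either gene, and Dsg4 lost its call in 5 of 18 alternatives.

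The cortex keratins Krt31, Krt34, Krt81, Krt83 and Krt86 varied widely among the controls, with coefficients of variation of 31.1% to 40%, and none was called with all libraries. Krt86 measured 108, 164, 62.5 and 91.4 TPM in controls and 44.9, 26.4 and 91.1 TPM after UVB (-0.99, SE 0.47, edgeR adjusted p = 0.211). Krt31 measured 112, 157, 70 and 119 TPM in controls and 50.7, 39.2 and 77.1 TPM after UVB (-1.05, SE 0.32, edgeR adjusted p = 0.0700). In each of these genes control b was the highest library and UVB c lay above control c. Krt81 measured 81.4, 132, 53.8 and 80.1 TPM in controls and 36.7, 24.2 and 71.8 TPM after UVB (-0.98, SE 0.42, edgeR adjusted p = 0.169). Krt83 measured 76.7, 99.1, 42.5 and 66.5 TPM in controls and 25.3, 20.7 and 52.1 TPM after UVB (-1.13, SE 0.39, edgeR adjusted p = 0.103). Krt34 measured 88.7, 117, 49.4 and 72.2 TPM in controls and 32.2, 19.6 and 77.7 TPM after UVB (-0.93, SE 0.49, edgeR adjusted p = 0.256). UVB a and UVB b were below every control in all 5, and all 5 passed without UVB c, at log2 fold changes from -1.36 to -1.67. Their counts were not whole in any library, so their separate levels are uncertain, and which genes shared these reads was not tested.

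Krt36 and Krt84 were scarce shaft keratins. Krt36, of type I, measured 2.99, 3.62, 1.44 and 3.07 TPM in controls and 0.860, 1.12 and 2.17 TPM after UVB (-0.99, SE 0.40, edgeR adjusted p = 0.137). Krt84, a type II keratin best known from tongue papillae, measured 6.10, 8.95, 4.32 and 5.85 TPM in controls and 4.80, 2.58 and 5.89 TPM after UVB (-0.54, SE 0.32, edgeR adjusted p = 0.290). These were the 2 shaft genes that did not pass without UVB c either.

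The cortex and sheath keratins varied separately among the controls. The summed TPM of the 5 cortex keratins divided by that of the 8 sheath and companion keratins was 0.486, 0.915, 0.302 and 0.380 in controls a to d. It was 0.485, 0.380 and 0.455 in UVB a to c, inside the control range. Control b had the highest cortex sum (668 TPM) and the lowest sum of the 7 sheath keratins other than Krt75 (559 TPM). Control c had the lowest cortex sum of the controls, 278 TPM. The grouping into cortex keratins and this ratio were chosen after the values were seen.

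**Figure D3:**
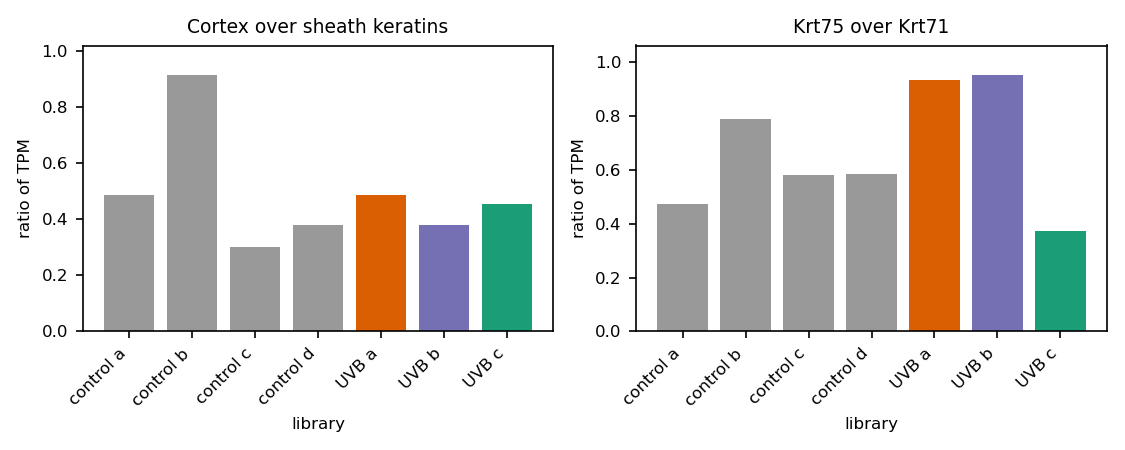
Ratios of TPM in each library: the 5 cortex keratins over the 8 sheath and companion keratins (left), and Krt75 over Krt71 (right). Control b stands highest on the left at 0.915 with the UVB libraries inside the control range, and on the right UVB a and UVB b stand above every control and UVB c below every control.

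Of the 10 tested regulators of the matrix, 4 were called lower: Lef1, Msx2, Hoxc13 and Dlx3. The same 4 were called without UVB c. Of all tested genes, 6.74% were called lower with all libraries and 4.39% without UVB c. The 12 measured regulators summed to 94.5, 95.3, 89.9 and 102 TPM in controls and to 68.6, 63.1 and 78.1 TPM after UVB, where all 3 UVB libraries were below every control. Gata3, the most abundant of them, carried a large part of that sum. The median log2 fold change was -0.64, and -0.99 without UVB c.

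Lef1 and Wnt10b, a transcription factor of the Wnt pathway and a Wnt ligand of the follicle, were low in all 3 UVB libraries. Lef1 measured 3.5, 2.54, 3.58 and 3.72 TPM in controls a to d and 1.64, 1.16 and 1.61 TPM in UVB a to c. UVB minus control was -1.13 in log2 (SE 0.20, edgeR adjusted p = 0.00933) with all libraries and -1.23 (SE 0.24) without UVB c. Wnt10b measured 0.530, 0.270, 0.590 and 0.450 TPM in controls and 0.220, 0.150 and 0.230 TPM after UVB, from 5 to 22 counts per library. Its groups did not overlap, but the call was missed at -1.26 (SE 0.41, edgeR adjusted p = 0.0746). UVB c stood at 48.3% of the control mean for Lef1 and at 50% for Wnt10b, the 2 lowest values of UVB c among the tested members.

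Of the homeobox genes, Msx2, Dlx3 and Hoxc13 fell. Msx2 measured 9.95, 8.32, 8.65 and 10.9 TPM in controls and 4.37, 2.98 and 6.51 TPM after UVB (-1.04, SE 0.24, edgeR adjusted p = 0.0241). Hoxc13, which activates hair keratin genes, measured 8.45, 7.39, 5.43 and 6.70 TPM in controls and 3.17, 2.86 and 5.17 TPM after UVB (-0.90, SE 0.26, edgeR adjusted p = 0.0491). Dlx3, which acts in the matrix and shaft, measured 20.7, 20.8, 20.6 and 27.3 TPM in controls and 10.7, 9.27 and 17.8 TPM after UVB (-0.83, SE 0.23, edgeR adjusted p = 0.0482). None of the 3 overlapped, with UVB c the closest to the controls each time. The calls of Hoxc13 and Dlx3 were lost in 11 and 10 of 18 alternatives, and that of Msx2 in 2. Lhx2, a homeobox gene of follicle stem cells, measured 8.13, 8.16, 6.88 and 7.89 TPM in controls and 6.15, 4.89 and 7.24 TPM after UVB (-0.36, SE 0.15, edgeR adjusted p = 0.156).

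The forkhead genes and the sheath regulator Gata3 did not pass. Foxn1, whose loss causes the nude phenotype, measured 5.58, 6.45, 3.54 and 6.05 TPM in controls and 3.54, 3.15 and 5.86 TPM after UVB (-0.44, SE 0.27, edgeR adjusted p = 0.311). Foxe1 measured 3.63, 2.77, 3.28 and 5.05 TPM in controls and 2.42, 1.84 and 4.19 TPM after UVB (-0.39, SE 0.30, edgeR adjusted p = 0.424). For both, UVB c was above the control mean. Gata3 measured 28.9, 34.7, 34.4 and 29.9 TPM in controls and 30.7, 29.1 and 26.2 TPM after UVB (-0.16, SE 0.083, edgeR adjusted p = 0.227). UVB a and UVB b lay within its control range and UVB c was below every control.

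The remaining members showed no call. Edar, the receptor for ectodysplasin, measured 3.99, 3.79, 2.86 and 3.52 TPM in controls and 3.86, 3.64 and 3.22 TPM after UVB (0.0073, SE 0.15, edgeR adjusted p = 0.983). Crnn, which encodes cornulin of squamous epithelia, measured 15.5, 18.7, 16.1 and 17.0 TPM in controls and 13.4, 10.3 and 16 TPM after UVB (-0.35, SE 0.14, edgeR adjusted p = 0.132). Foxq1, a forkhead gene of the hair medulla, and Fgf5, the signal that ends hair growth, did not pass the filter on low counts. Foxq1 was recorded in control a (0.710 TPM), UVB a (1.74 TPM) and UVB b (3.94 TPM) and listed at 0 in the other 4 libraries, with counts that were not whole. Fgf5 had 1 to 5 counts per library.

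**Figure D4:**
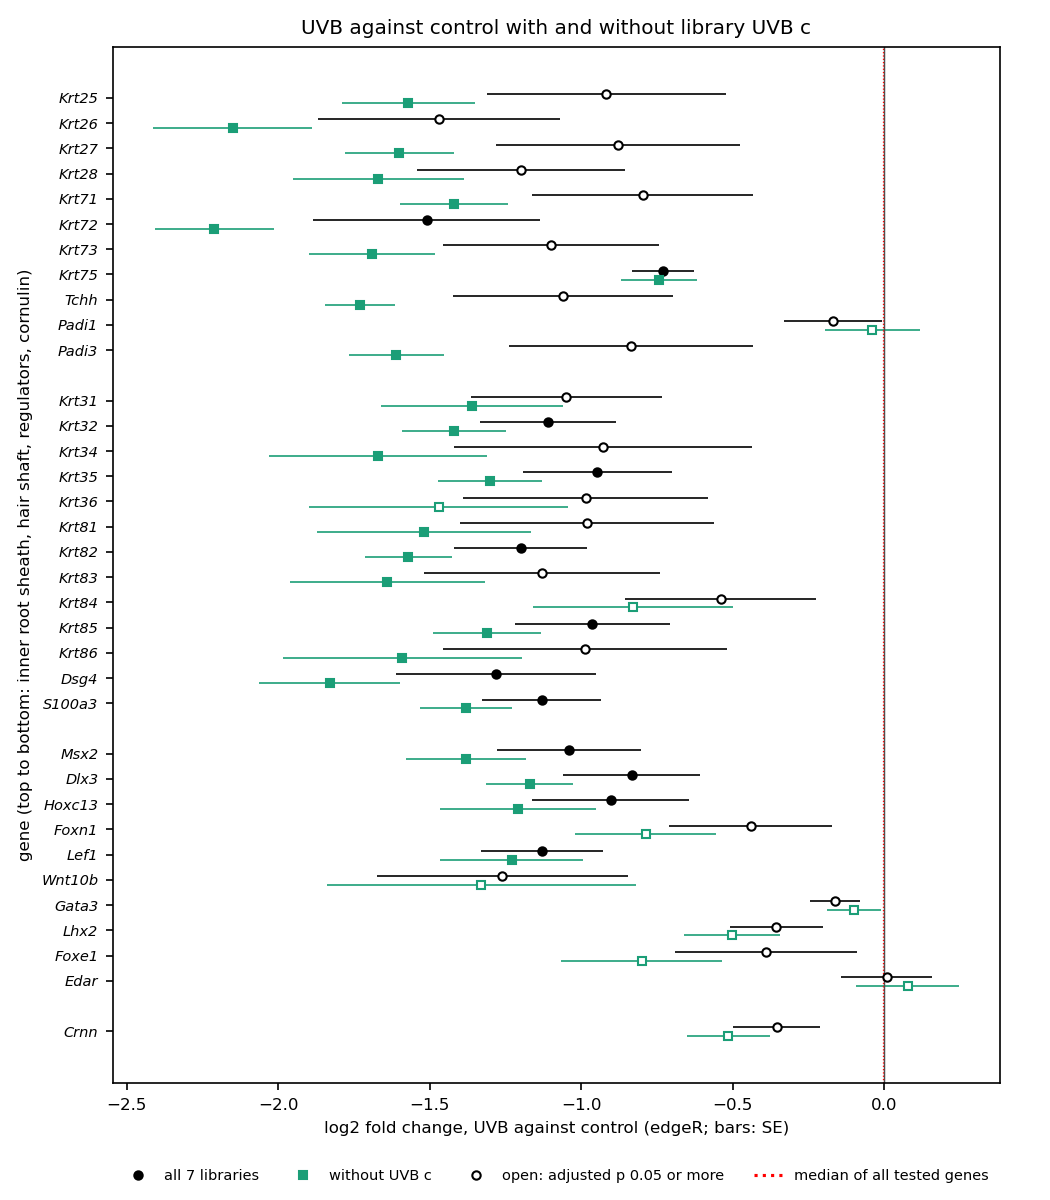
Log2 fold change of each tested follicle gene with its standard error, for all 7 libraries (circles) and without UVB c (squares); filled symbols have an edgeR adjusted p under 0.05 and the dotted line is the median of all tested genes. With all libraries 12 genes are filled and without UVB c 25 are, and Krt75, Lef1 and Wnt10b have nearly the same value in both. UVB c was singled out after the values were seen.

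UVB c took a different place for different genes. Over the 30 genes with UVB a and UVB b below every control, the place of UVB c was measured on the log2 TPM scale, with 0 for the mean of UVB a and UVB b and 1 for the control mean. The median place was 0.711. The lowest places were those of Krt75 (0.0543), Lef1 (0.177) and Wnt10b (0.266). S100a3 (0.491), Krt32 (0.557) and Krt82 (0.571) of the hair cuticle came next. Krt71 (0.994), Krt27 (0.991), Krt34 (0.997), Padi3 (1.02) and Foxe1 (1.29) were close to or above the control mean. This measure was chosen after the values were seen and is a description of 1 library with no test.

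Other genes of the follicle were taken from further lists, also chosen with earlier results of these data known. The counts of calls in them stand beside the 6.30% of all tested genes called higher and the 6.74% called lower, and no difference between lists was tested. In the fit without UVB c, 605 of 13795 tested genes (4.39%) were called lower, and 1168 were called in either direction. In the Wnt list, 3 of 30 tested genes were called higher and 3 lower, or 2 and 3 without UVB c. Wnt3, a ligand of the hair matrix, measured 6.64, 7.49, 5.76 and 8.08 TPM in controls and 4.77, 2.97 and 3.17 TPM after UVB (-0.96, SE 0.19, edgeR adjusted p = 0.0132). Porcn, which prepares Wnt proteins for release, rose from 32.5 ± 8.02 TPM (SD, n = 4) to 65.9 ± 4.70 TPM (SD, n = 3) at 1.02 in log2 (SE 0.17, edgeR adjusted p = 0.0106). Sfrp1, a secreted Wnt antagonist, rose from 28.2 ± 1.03 to 34.7 ± 0.895 TPM (0.29, SE 0.054, edgeR adjusted p = 0.0104). The median of the list was -0.15. The groups did not overlap in any of these 3 genes, with UVB c beside the other UVB libraries.

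In the list of ectodysplasin, FGF, BMP and hedgehog signals, 8 of 26 tested genes were called lower and 1 higher, with a median of -0.37, where 6.74% and 6.30% of all tested genes were. Without UVB c, 5 were called lower and 1 higher. In that fit 605 of 13795 tested genes (4.39%) were called lower and 1168 in either direction. Fgfr2, an FGF receptor of epithelium, fell from 44.1 ± 2.30 TPM (SD, n = 4) to 30.7 ± 1.21 TPM (SD, n = 3) at -0.53 (SE 0.062, edgeR adjusted p = 0.00234). Ptch1, a receptor and target of hedgehog signals, measured 8.54, 8.09, 8.69 and 8.97 TPM in controls and 6.59, 6.05 and 6.47 TPM after UVB (-0.42, SE 0.067, edgeR adjusted p = 0.00656). Igf1, a growth factor made by dermal cells, rose from 6.20 ± 1.13 to 11.8 ± 2.76 TPM (0.97, SE 0.17, edgeR adjusted p = 0.00924). In all 3 genes the groups did not overlap. Shh, the hedgehog ligand of the hair matrix, had 0.660, 0.470, 1.01 and 1.08 TPM in controls and 0, 0.190 and 0.240 TPM after UVB (-2.38, SE 0.61, edgeR adjusted p = 0.0332), from 0 to 28 counts. Fgf18, a follicle FGF, measured 1.26, 2.12, 1.65 and 2.56 TPM in controls and 0.84, 0.910 and 0.910 TPM after UVB (-1.05, SE 0.28, edgeR adjusted p = 0.0399). Shh and Fgf18 were picked out after their values were seen, and each lost its call in some alternatives, with adjusted p up to 0.0828 and 0.106.

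**Figure D5:**
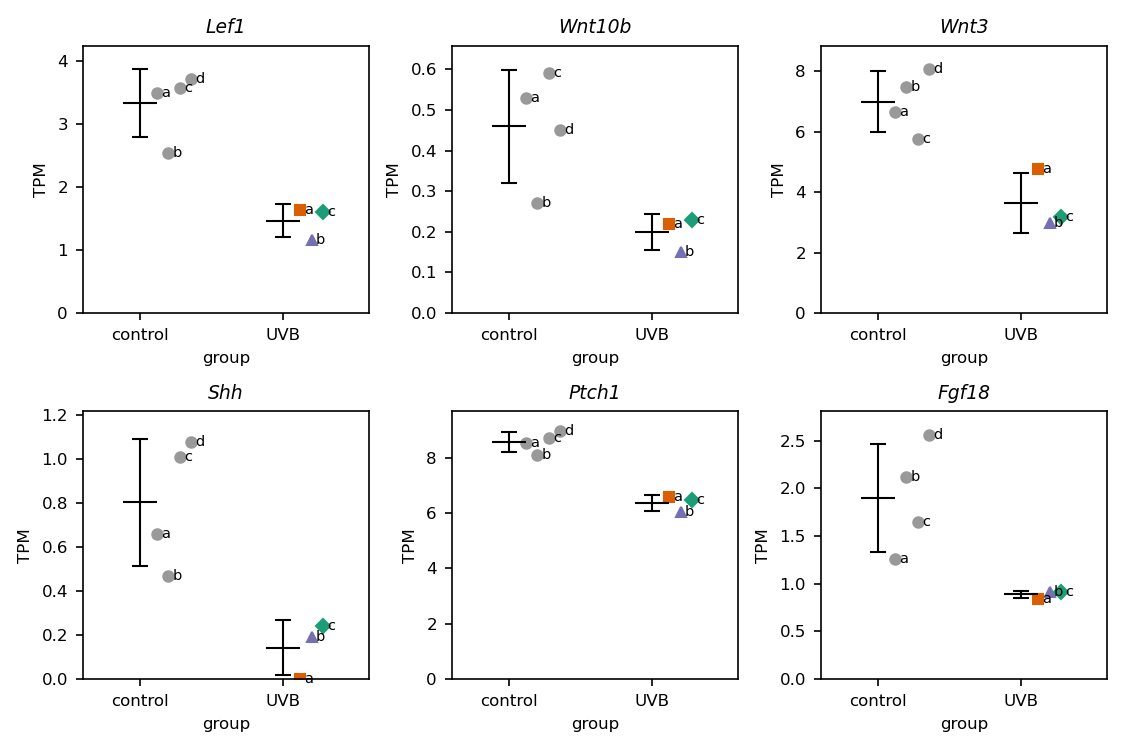
TPM of 6 follicle signal genes in each library, with the letters naming the libraries and bars for the group mean and SD. In each gene all 3 UVB libraries lie below every control, UVB c among them. The 6 genes were picked after their values were seen, and Wnt10b was not called. Genes of the Wnt and signal lists that were called higher (Porcn, Sfrp1, Axin2 and Igf1) are not shown, nor are those with little change.

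In the next lists the shares over all tested genes were again 6.74% lower and 6.30% higher. Without UVB c, 605 of 13795 (4.39%) were called lower and 1168 in either direction. Among other follicle transcription regulators, 3 of 27 were called lower and 0 higher, or 4 and 0 without UVB c. The 3 were Cux1, which acts in the sheath lineage (-0.30, SE 0.053, edgeR adjusted p = 0.00892), Gata6 (-0.90, SE 0.19, edgeR adjusted p = 0.0215) and Prdm1 (-0.47, SE 0.13, edgeR adjusted p = 0.0480). Among desmosome, S100 and crosslinking partners, 6 of 25 were called higher and 2 lower, or 5 and 2 without UVB c. Tgm3, the transglutaminase that crosslinks trichohyalin and epidermal proteins, rose from 18.4 ± 2.96 TPM (SD, n = 4) to 47.2 ± 10.6 TPM (SD, n = 3) at 1.35 (SE 0.17, edgeR adjusted p = 0.00479), while its substrate gene Tchh was low in UVB a and UVB b. The desmosomal cadherin gene Dsg3 (0.50, SE 0.074, edgeR adjusted p = 0.00584) and S100a6 (0.68, SE 0.12, edgeR adjusted p = 0.0107) also rose, where the shaft members Dsg4 and S100a3 of the same families fell. Among outer root sheath and stem cell genes, 2 of 16 were called higher and 4 lower, or 0 and 3 without UVB c. Krt80 (-0.62, SE 0.10, edgeR adjusted p = 0.00706) and Lrig1, a stem cell marker (-0.48, SE 0.089, edgeR adjusted p = 0.0107), fell, and Krt14 of basal cells rose (0.47, SE 0.099, edgeR adjusted p = 0.0173), with counts that were not whole. The calls of Gata6, Prdm1 and Krt14 were lost in 4, 11 and 2 of 18 alternatives.

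Keratin-associated proteins form the matrix between hair keratin filaments. Of the 2 genes whose symbol starts with Krtap, Krtap14 was tested and measured 42.5, 72.7, 23.3 and 47.0 TPM in controls and 17.6, 11.1 and 38.7 TPM after UVB (-1.05, SE 0.50, edgeR adjusted p = 0.207). As in the cortex keratins, control b was the highest library and UVB c lay above control c. By deposited gene name 11 entries were keratin-associated proteins, a rule added after the values were seen. Of these, 6 were tested and 2 were called lower with all libraries, or 5 without UVB c. Of all tested genes, 6.74% and 4.39% were called lower in these fits. All 6 had a log2 fold change below 0, where the median of all tested genes was -0.0058.

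Markers of other cells were measured beside the follicle genes, and their counts of calls stand beside 6.74% of all tested genes called lower and 6.30% higher. Genes of the dermal papilla, the mesenchymal core of the follicle, were called lower in 3 of 8 tested. The list summed to between 164 and 227 TPM in controls and between 127 and 155 TPM after UVB. The 3 were Crabp1, Prom1 and Enpp2, with control means of 93.4, 57.7 and 46.0 TPM, and they carried most of that sum. Of the 8, 6 had a log2 fold change below 0, while Vcan (0.30) and Alpl (0.25) were above 0 and not called. Whether the 3 called genes came from papilla cells was not tested. Melanocyte genes were called lower in 3 of 7 and summed to between 94.7 and 161 TPM in controls and between 85.2 and 89.9 TPM after UVB. UVB c stood at 127 and 89.9 TPM in these lists, below every control in both. Epidermal markers were called lower in 4 of 9 and summed to between 3033 and 3696 TPM in controls and to 3466, 2899 and 4391 TPM in UVB a to c, so UVB c had the highest epidermal sum. Skeletal muscle markers summed to between 2743 and 3901 TPM in controls and to 3396, 2872 and 1786 TPM in UVB a to c, and 1 of 9 was called lower. Fibroblast markers were called higher in 4 of 7 and summed to between 954 and 1477 TPM in controls and between 1255 and 1999 TPM after UVB. Leukocyte markers were called higher in 2 of 9 and smooth muscle markers in 2 of 8, and conjunctival markers in 0 of 6, and 0 genes of these 3 lists were called lower. Without UVB c, 605 of 13795 tested genes (4.39%) were called lower, and 1168 were called in either direction. The markers called lower were then 1 in the dermal papilla list, 2 in the melanocyte list, 2 in the epidermal list and 1 in the skeletal muscle list. Those called higher were then 3 in the fibroblast list, 1 in the leukocyte list and 1 in the smooth muscle list. Some chosen markers were not among the genes used. Those used were 9 of 12 epidermal, 7 of 11 conjunctival and goblet cell and 7 of 8 melanocyte markers. For skeletal muscle they were 9 of 12 and for fibroblasts 7 of 8. No marker among the genes used was at 0 in every library. Their part in the levels of the follicle genes was not tested.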

How the data were processed

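RNA sequencing of 4 control and 3 UVB libraries of rat meibomian gland was used. The submitters' processing notes name FastQC, Trimmomatic, DRAGEN, Picard and the build rn7, with no role or order; the annotation, the counting rule and the handling of strand are not given in the sources used here. The authors deposited estimated counts per gene, without normalisation, of which 12.5% were not whole, and a second table of TPM values. The deposited TPM of a library summed to 820195 to 840722. Values were read from the right end of each row because commas in gene names moved cells; 5 rows lacked a value and were left out.

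After rounding, the counts entered edgeR 4.0.16 under R 4.3.3, with TMM factors, filterByExpr and the robust quasi-likelihood test over 13709 genes, two-sided, with Benjamini-Hochberg adjustment and a threshold of 0.05. Each SE was obtained from the log2 difference and the F statistic, as its size over the root of F. The alternatives used DESeq2 1.42.0, limma 3.58.1, other scalings, filters and pseudocounts, and each library left out in turn. In simulated counts for this comparison with 200 of 13602 genes changed 2-fold, edgeR recovered 91.0%, and 9.45% of its 201 calls were false. The changed genes had a mean count of at least 50, and no library was simulated to stand apart. The recovery therefore does not cover scarce genes such as Wnt10b (5 to 22 counts), nor a library such as UVB c. Levels are TPM, and non-overlap of groups was read in TPM. No multiple-testing adjustment was made over the gene list alone. The members and lists were chosen with earlier results of these data known. Every member was accounted for, with library values for those called or with a mean of at least 1 TPM in either group. Up to 3 called genes with the smallest p were named from each further list, and Shh, Fgf18 and Axin2 were named besides.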

Additional observations from a re-analysis of the deposited data

Results flagged for a closer look

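In the controls, 66 quantities (levels, sums and ratios) were examined for a single distant library, which chance gives in about 1 in 20 groups, or 3.3 here. This was found for 2. Dlx3 measured 27.3 TPM in control d and 20.6 to 20.8 TPM in controls a, b and c, so the distance to the nearest control took up 0.976 of the range. Foxq1 was recorded in control a, at 0.710 TPM, and listed at 0 in controls b, c and d, so that distance was 1 of the range. The UVB group, with 3 libraries, was not examined in this way.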

How the results depend on the processing

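No member was called higher in any of the 18 alternatives. The UVB mean of the summed level, as percent of control, was lowest without UVB c, at 39.5% for the sheath, 36.5% for the shaft and 69.0% for the regulators, and highest without UVB b, at 64.3%, 58.6% and 76.9%. Of the 12 calls, 4 were kept in every alternative, and 14 of 23 uncalled members were called in at least 1. Of these 14, 13 were called in the fit without UVB c. For Krt25, Krt27, Krt71, Krt34, Krt81, Krt83, Krt86 and Padi3 that fit was the only alternative with a call. Sheath genes called lower numbered 2 in the reported fit, 5 with DESeq2, 6 with limma-voom, 4 without robust estimation and 1 without a filter on low counts. In the same order, 1787, 2400, 1813, 1819 and 1717 of all genes were called in either direction. Regulators called lower numbered 4, and 2 with upper quartile factors, library size alone or log2(TPM + 1) without a filter. Those last fits called 1746, 1634 and 1220 of all genes in either direction. The regulators' median of -0.64 was -0.32 on log2(TPM + 1), -0.422 on log2(TPM + 0.1) and -0.318 on log2(TPM + 1) without a filter. Leaving out 1 library at a time gave 851 to 1898 called genes in all, 4 to 25 members called lower, 1 to 10 sheath genes, 2 to 11 shaft genes and 1 to 4 regulators. In these fits 3.14% to 7.09% of all tested genes were called lower. Medians then ran from -1.61 to -0.695 for the sheath, -1.47 to -0.848 for the shaft and -0.987 to -0.38 for the regulators. Pathway partners called lower ran from 7 to 21 and higher from 6 to 18, over further lists of 30, 26, 27, 25, 16 and 1 tested genes. Edar (0.0073 in the reported fit, not called) ran from -0.0949 without control c to 0.078, with -0.0367 without UVB a and -0.0149 without UVB b. The cause of these shifts was not tested. Wnt10b (5 to 22 counts) could be fitted in 12 of 18 alternatives. No paired analysis was possible because no column could be matched to a numbered label, so the replicate block was not run. The labels also number the control and UVB samples separately within each group and state no pairing between them, so the groups were compared as unpaired. The KAP genes by name, the place of UVB c and the cortex ratio were added after the data were seen, and UVB c was singled out then too.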
